A study of Homo sapiens with 21 samples.

Results

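The 41 genes described here encode glucose transporters, glycolytic enzymes and their regulators, lactate and pyruvate handling proteins, and proteins of the cellular response to low oxygen. They were given as a list of symbols and were found in the deposited table of 57820 genes through their Ensembl identifiers. That look-up did not use their values, but the list was drawn up with earlier results of these data known. Counts set beside those of all genes are therefore descriptions. Of the 41, 40 were among the 18040 genes that passed the filter on low values and were tested. CA9, carbonic anhydrase 9, did not pass.

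Glycolysis splits glucose into pyruvate in the cytosol. Hexokinases trap glucose as glucose 6-phosphate, phosphofructokinase commits it to the pathway, pyruvate kinase makes the final pyruvate, and lactate dehydrogenase turns pyruvate into lactate, which monocarboxylate transporters carry out of the cell. Hypoxia-inducible factors (HIF) pair an oxygen-regulated alpha subunit, HIF1A or EPAS1 (also called HIF-2 alpha), with a stable partner. With oxygen present, prolyl hydroxylases (the EGLN proteins) mark the alpha subunits for degradation, so that their protein level is set largely after transcription. When oxygen is short, the pairs bind DNA at a short core sequence and raise genes of glycolysis, pH control, blood vessel growth and mitophagy.

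The study measured RNA by sequencing in A673, a cell line from an Ewing sarcoma, whose growth depends on the fusion protein EWS/FLI made from EWSR1 and FLI1. All 21 libraries come from this single line, and the study's title concerns how the EWS part of the fusion takes part in its binding at GGAA repeats. Cells received RNAi and, after 4 days of selection, a vector. The control group had RNAi against luciferase and an empty vector (replicates 1, 2, 3 and 5, n = 4). The knockdown group had RNAi against EWS/FLI and an empty vector (replicates 1 to 5, n = 5). The other groups had the same EWS/FLI RNAi and a rescue vector, carrying wild-type type IV EWS/FLI (replicates 1 to 5, n = 5), the form named delta 22 (replicates 1 to 4, n = 4) or the form named mut9 (replicates 3 to 5, n = 3). They are called the wild-type, delta 22 and mut9 libraries. The replicate number is the batch of the labels. Nothing in the labels says that replicates were separate cultures, so a p-value here covers only how far these samples spread, and that spread may be technical.

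Values are the authors' normalized log2 values, whose library depth is unknown, and values of a group are given in the order of replicate number. FLI1, the target of the knockdown, lay between 11.56 and 11.69 in the control libraries and between 9.59 and 9.99 in the knockdown libraries. It lay between 10.35 and 10.69 in the wild-type, 10.99 and 11.51 in the delta 22 and 10.10 and 10.39 in the mut9 libraries. Of 7 Ewing sarcoma markers 6 passed the filter, while CD99 is listed at 0 in every library. No epithelial marker of 3 and not the 1 hepatocyte marker passed. Of the leukocyte markers, PTPRC (3.1 to 4.3 over all libraries) and CD14 passed. CD14 had a mean of 4.03 in the control, 6.01 in the knockdown, 4.52 in the wild-type, 6.22 in the delta 22 and 6.64 in the mut9 libraries, and its part in the results was not tested. Both endothelial markers in the table, CDH5 and VWF, passed. Between 16708 and 17326 genes per library reached 10 on the linear scale. In bulk RNA of this kind, fewer cells of a type and less RNA per cell cannot be told apart.

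Promoter sequence was used only as a description of what the genes share. RefSeq promoter windows (GRCh38.p14, 250 bases before to 50 after a start site) were found for 35 of the 41 genes. The hypoxia response element core ACGTG, counted on both strands (a palindromic match counts on each), stood in a window of 20 of the 35 (57.1%), against 24.9% of 27305 genes with a promoter entry. A gene counts if any of its listed start sites has a match, and the 35 genes have 63 windows where all 27305 have 35116. Per window the shares were 38.1% and 21.4%. The related core GCGTG stood in 65.7% of the 35 genes and 40.6% of all (44.4% and 36.5% per window). The ETS site core CGGAAG stood in 14 of the 35 and in 22.6% of all (28.6% and 19.5% per window). A pair of adjoining GGAA units stood in 2 of the 35, ALDOA and SLC16A3, and in 4.5% of all, but in a lower share of the windows of these genes than of all windows (3.17% and 3.67%). A match is a string of letters and not a bound site, and a window without one says nothing of the factor. The windows of 5 genes are shown as examples chosen after the matches were seen: BHLHE40 and ANKRD37, which rose after the knockdown, and PGK1 and ALDOC, which fell, for their matches of ACGTG, and EPAS1, which rose, as a window without one. The windows of ADM and CA12, which also rose, held no ACGTG either. Each line gives the 250 bases before the start, 5′ to 3′ on the strand of the gene, with both hypoxia cores, read on either strand, in capitals. They lie at chr3:4979187-4979436 (plus strand) for BHLHE40, chr4:185396591-185396840 (plus strand) for ANKRD37, chr2:46297157-46297406 (plus strand) for EPAS1, chrX:78103998-78104247 (plus strand) for PGK1 and chr17:28576896-28577145 (minus strand) for ALDOC.
BHLHE40: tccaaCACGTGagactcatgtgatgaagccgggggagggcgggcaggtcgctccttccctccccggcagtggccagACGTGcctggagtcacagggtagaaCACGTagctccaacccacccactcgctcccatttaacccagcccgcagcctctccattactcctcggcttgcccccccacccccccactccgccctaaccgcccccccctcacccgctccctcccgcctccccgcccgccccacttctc
ANKRD37: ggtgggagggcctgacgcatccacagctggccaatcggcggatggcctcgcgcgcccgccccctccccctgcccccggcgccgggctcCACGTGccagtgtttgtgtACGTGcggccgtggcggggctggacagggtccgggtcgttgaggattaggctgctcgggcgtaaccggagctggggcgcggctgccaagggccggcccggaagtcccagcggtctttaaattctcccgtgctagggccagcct
EPAS1: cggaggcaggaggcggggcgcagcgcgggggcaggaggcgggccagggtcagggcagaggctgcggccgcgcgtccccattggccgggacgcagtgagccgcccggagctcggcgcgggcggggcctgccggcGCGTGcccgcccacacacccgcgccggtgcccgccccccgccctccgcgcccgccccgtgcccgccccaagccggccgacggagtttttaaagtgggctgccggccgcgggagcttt
PGK1: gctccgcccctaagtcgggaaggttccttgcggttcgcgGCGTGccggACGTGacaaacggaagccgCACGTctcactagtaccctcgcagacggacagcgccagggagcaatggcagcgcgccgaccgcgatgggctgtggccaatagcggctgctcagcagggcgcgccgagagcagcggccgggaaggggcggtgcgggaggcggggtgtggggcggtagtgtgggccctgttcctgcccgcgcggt
ALDOC: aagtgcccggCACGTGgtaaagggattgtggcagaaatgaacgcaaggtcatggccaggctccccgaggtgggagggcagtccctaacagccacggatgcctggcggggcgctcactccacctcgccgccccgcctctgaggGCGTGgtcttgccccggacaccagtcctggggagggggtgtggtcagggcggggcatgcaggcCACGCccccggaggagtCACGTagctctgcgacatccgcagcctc

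BHLHE40 held 4 matches of ACGTG, ANKRD37 and ALDOC 3 each, PGK1 2, and EPAS1 none but 1 of GCGTG, in the bases shown. The core ACGTG thus stood before genes that moved in either direction. It was present in 7 of the 18 matched genes that rose after the knockdown (38.9%) and in 10 of the 13 that fell (76.9%). The core GCGTG was split the other way, in 72.2% of those that rose and 53.8% of those that fell, and one core or the other stood in 94.4% and 92.3%.

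The first comparison asks what loss of EWS/FLI did to these genes. Of the 40 tested, 22 were higher and 14 lower in the knockdown than in the control libraries at an adjusted p under 0.05 (limma, Benjamini-Hochberg over all 18040 genes). Of all genes tested, 69.5% were called, 35.5% as higher and 34.0% as lower, so that a call by itself was common. The median difference of the 40 genes was 0.402 on the log2 scale, beside -0.007 over all genes. The adjusted p-values given for single genes below come from the same limma fit. Of the 13 HIF subunits, prolyl hydroxylases and hypoxia response genes tested, 12 rose and none fell, with BNIP3 not called (median 1.077). The filter had left out CA9, whose mean was 3.28 in the control and 2.36 in the knockdown libraries. With no filter, 21 of the 41 genes were higher and 15 lower. There CA9 joined the lower genes, and KDM3A was no longer called as higher. Of the 18 enzymes from hexokinase to lactate dehydrogenase, 13 fell and 5 rose (median -0.337). The 5 that rose were HK1, HKDC1, PFKL, PKM and LDHA. Within the 4 batches that hold both groups, 35 of the 36 called genes kept their direction in every batch, and PDK1 did not. Quantile scaling shifted the all-gene median to -0.202, and 38.0% of all calls were then in the higher direction, against 51.1% as deposited. With that shift 19 of the 40 genes were higher and 14 lower, and PDK1, EGLN3 and KDM3A were not called.

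**Figure D1:**
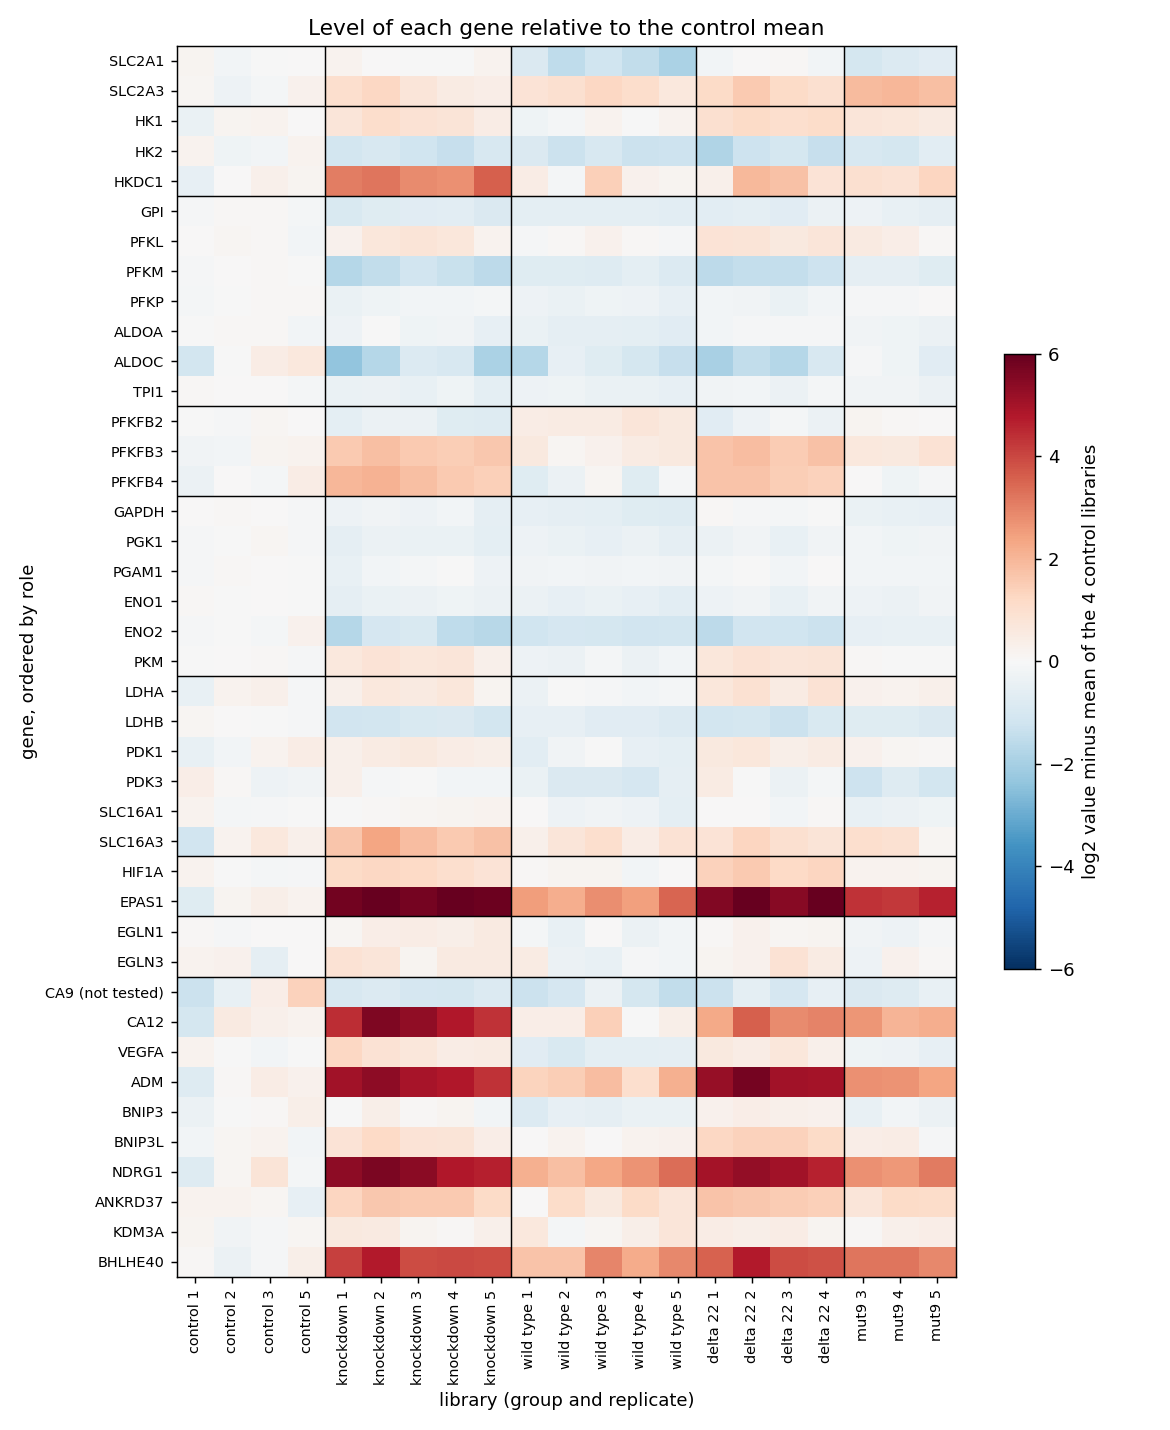
Heat map of the 41 genes (vertical axis, ordered by role, with black lines between roles) in the 21 libraries (horizontal axis, by group and replicate). Colour gives the log2 value minus the mean of the 4 control libraries. EPAS1, ADM, NDRG1 and BHLHE40 are the dark red lines in the knockdown and delta 22 libraries. CA12 is dark red in the knockdown and paler with delta 22, and most enzymes of the pathway are pale or blue in both groups.

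Adding back wild-type EWS/FLI lowered 26 of the 40 genes and raised 4 relative to the knockdown libraries (adjusted p under 0.05), where 61.8% of all genes were called, 29.6% as higher and 32.3% as lower. The median difference was -0.604, beside 0.006 over all genes. The 4 that rose were PFKM, PFKFB2, LDHB and GPI, the last not called without knockdown replicate 1 (0.14) or 5 (0.15). Delta 22 lowered HKDC1 and CA12 and raised BNIP3L, which makes 3 of the 40 genes, where 4.5% of all genes were called, 2.24% as higher and 2.26% as lower. BNIP3L was not called without knockdown replicate 1, 3, 4 or 5 or delta 22 replicate 1, 2, 3 or 4 (values of 0.38 to 0.54). Nor was it called under quantile scaling (0.44), with no filter or with the compared groups only (0.49 in each). The median difference was 0.074, beside 0.006 over all genes. With the batch as a block, the delta 22 count was 5, as GAPDH (0.23) and SLC16A3 (-0.89) were called as well. GAPDH was also called with no filter, a mean of at least 100 or trimmed mean rescaling (0.27 in each). Without knockdown replicate 4 (0.31) or delta 22 replicate 3 (0.30) it was called too. SLC16A3 was also called with the compared groups only (-0.89). Mut9 lowered 19 and raised 8, where 48.6% of all genes were called, 23.0% as higher and 25.5% as lower, with a median of -0.346 beside -0.003. Within the batches shared with the knockdown, 29 of the 30 wild-type calls (not SLC16A1), all 3 delta 22 calls and all 27 mut9 calls held their direction in each batch. Under quantile scaling the wild-type rescue had 9 genes higher and 24 lower, with an all-gene median of 0.12 and 59.5% of all calls in the higher direction, against 47.8% as deposited. All rescue comparisons use the same knockdown libraries, and the knockdown comparison uses them too, so the values are given side by side and their likeness is not counted.

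**Figure D2:**
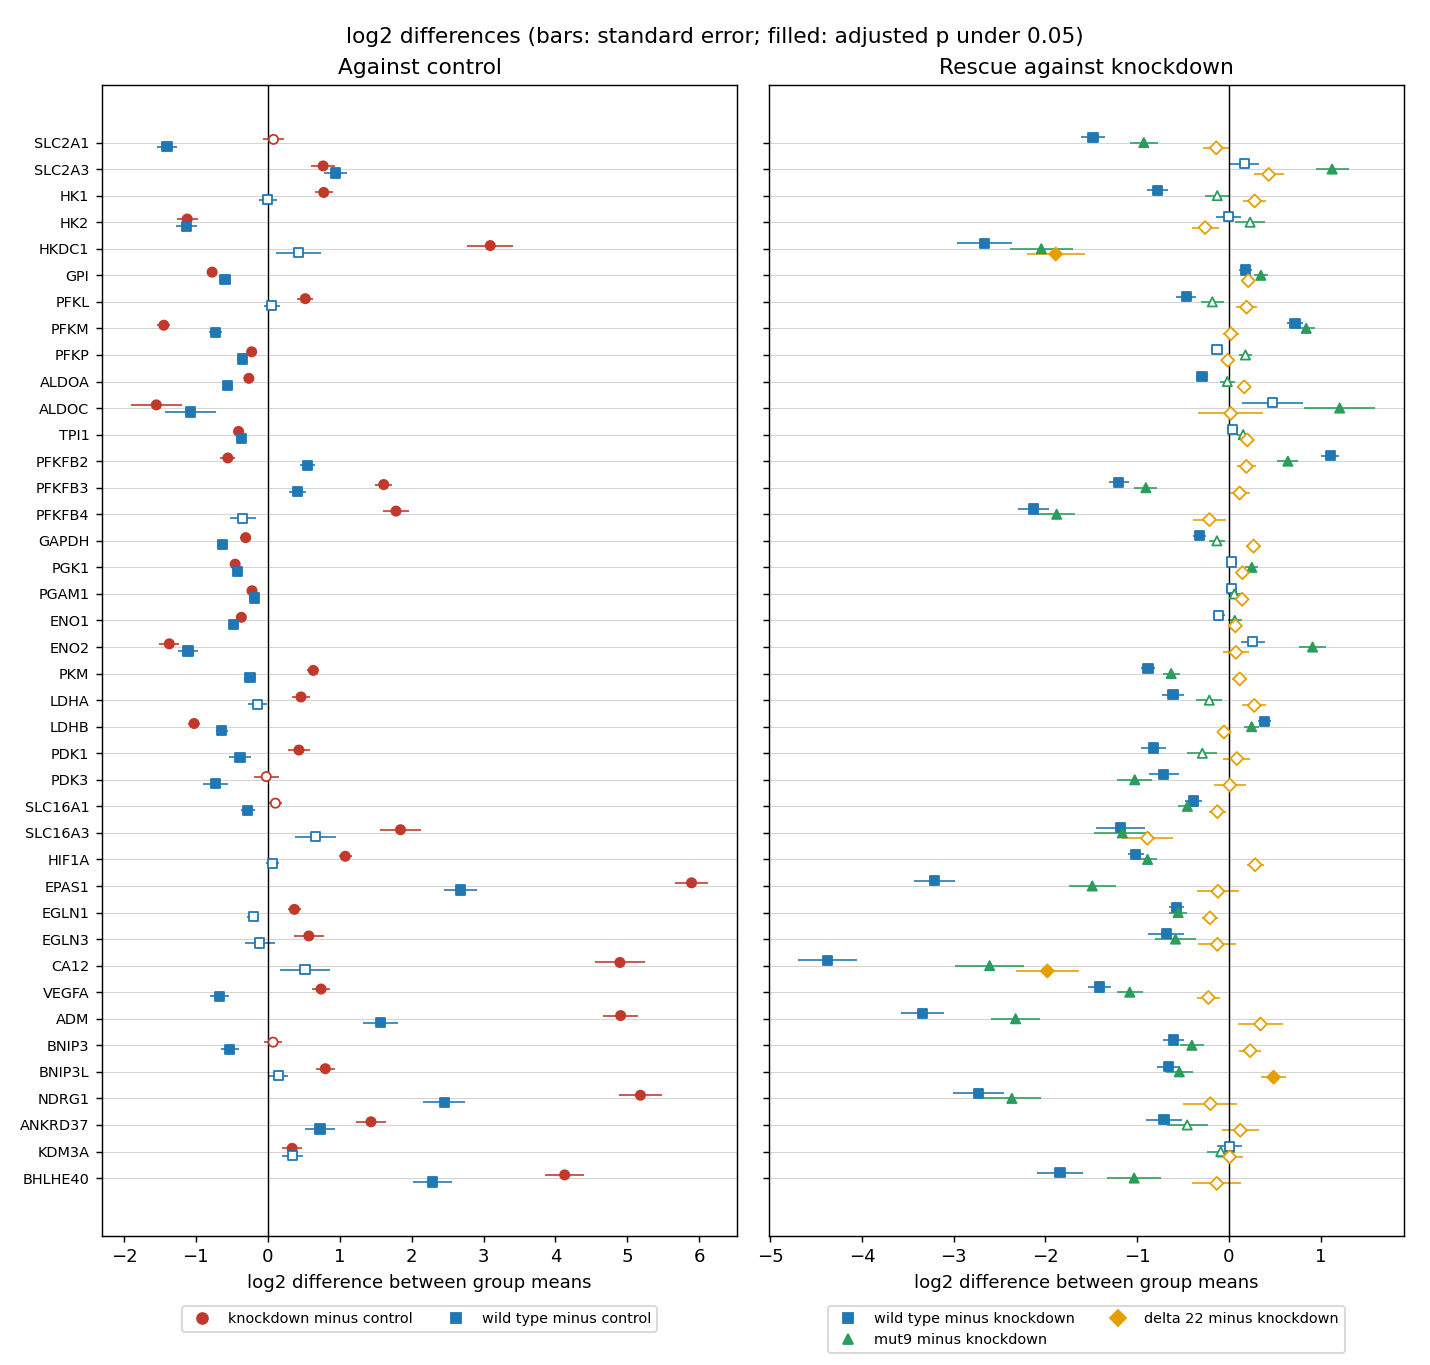
log2 differences between group means (horizontal axes) for the 40 tested genes (vertical axis, by role), against control on the left and against the knockdown on the right. Bars are standard errors and filled symbols have an adjusted p under 0.05: the filled delta 22 diamonds are HKDC1, CA12 and BNIP3L, and the diamond of SLC16A3, at -0.89, is open.

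Both HIF alpha subunits rose after the knockdown. EPAS1 stood at 4.08, 4.99, 5.17 and 5.04 in the control libraries and at 10.59, 10.92, 10.58, 10.79 and 10.68 in the knockdown libraries. With wild-type EWS/FLI it stood at 7.33, 6.98, 7.59, 7.30 and 8.32, with delta 22 at 10.36, 10.91, 10.29 and 10.81, and with mut9 at 9.18, 9.07 and 9.42. Every knockdown and delta 22 library lay far above every control library, and the wild-type libraries lay between, below all 3 mut9 libraries. The rise was 5.89 on the log2 scale, a 59.4-fold difference (SE 0.23, adjusted p = 1.08e-13), and it ran from 5.41 to 6.51 within batches. Wild-type EWS/FLI lowered EPAS1 9.25-fold (-3.21, SE 0.22, adjusted p = 3.63e-10) and left it 6.42-fold above control (2.68, SE 0.23, adjusted p = 8.3e-08). Mut9 lowered it by less, 2.81-fold, and the mut9 libraries were 1.72 above the wild-type libraries on the log2 scale (adjusted p = 0.000196). The delta 22 libraries differed from the knockdown by -0.12 (adjusted p = 0.834). EPAS1 is best known from endothelium. The endothelial marker VWF had a mean log2 value of 2.34 over the control and 3.72 over the knockdown libraries, which did not overlap, and of 2.47, 3.89 and 2.52 in the rescues (wild-type, delta 22, mut9). CDH5, another endothelial marker, had means of 3.48, 3.42, 4.09, 4.49 and 3.76 in the same order. VWF was thus higher in the knockdown and delta 22 libraries than in the others, as EPAS1 was. It was low in every library, however (2.09 to 4.23), and passed the filter only through those groups. With wild-type and mut9 the mean of VWF lay near that of control, while EPAS1 stayed above every control library. CDH5 did not follow EPAS1, and the part of these markers in the result was not tested.

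HIF1A, the broadly expressed alpha subunit, stood at 14.40, 14.18, 14.12 and 14.15 in the control and at 15.38, 15.45, 15.38, 15.20 and 15.03 in the knockdown libraries. It stood at 14.30, 14.36, 14.39, 14.07 and 14.25 with wild-type EWS/FLI, at 15.58, 15.80, 15.40 and 15.51 with delta 22 and at 14.43, 14.41 and 14.37 with mut9. The knockdown and delta 22 libraries formed a high group, and the libraries of the other 3 groups a low one with no overlap. The rise after the knockdown was 2.11-fold (1.08, SE 0.09, adjusted p = 3.69e-09). Wild-type EWS/FLI lowered HIF1A by 2.02-fold and mut9 by 1.85-fold (adjusted p = 7.04e-09 and 7.04e-07). The wild-type libraries differed from control by 0.06 (adjusted p = 0.617), a difference that quantile scaling moved to 0.21 and called.

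The prolyl hydroxylases, whose products mark HIF alpha subunits and which are themselves HIF targets, rose by smaller amounts. EGLN3 stood at 6.10, 6.16, 5.36 and 5.91 in the control and 6.73, 6.61, 6.07, 6.43 and 6.41 in the knockdown libraries. It stood at 6.35, 5.53, 5.46, 5.79 and 5.72 with wild-type, 6.06, 6.16, 6.73 and 6.36 with delta 22 and 5.57, 6.12 and 5.93 with mut9. All groups overlapped their neighbours, and the rise of 0.57 (adjusted p = 0.0191) was not called without control replicate 3 (0.40). EGLN1, the main oxygen sensor of this family, rose by 0.37 (SE 0.09, adjusted p = 0.000782) and fell with wild-type (-0.57, adjusted p = 5.17e-06) and with mut9 (-0.55, adjusted p = 7.56e-05). For EGLN3 the difference was -0.68 with wild-type (adjusted p = 0.00495) and -0.58 with mut9 (adjusted p = 0.0386). The mut9 difference of EGLN3 was not called with the batch as a block (-0.51), and was not called without knockdown replicate 1, 2, 4 or 5 or mut9 replicate 3 or 5 (values of -0.61 to -0.43).

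The hypoxia response genes held the largest rises after EPAS1. NDRG1, a stress-responsive gene raised by low oxygen, stood at 7.35, 8.25, 8.89 and 7.98 in the control and at 13.48, 13.76, 13.52, 12.93 and 12.80 in the knockdown libraries. With wild-type EWS/FLI it stood at 10.23, 9.91, 10.45, 10.79 and 11.45, with delta 22 at 13.12, 13.41, 13.14 and 12.71 and with mut9 at 10.85, 10.72 and 11.23. The wild-type and mut9 libraries overlapped each other and lay between the control libraries and the others. NDRG1 rose 36.3-fold after the knockdown (5.18, SE 0.29, adjusted p = 1.09e-11) and fell 6.63-fold with wild-type and 5.16-fold with mut9 (adjusted p = 6.55e-08 and 5.67e-06). It was still 5.47-fold above control with wild-type (adjusted p = 3.31e-06).

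ADM encodes adrenomedullin, a secreted peptide that widens blood vessels. It stood at 7.22, 8.04, 8.41 and 8.22 in the control and 13.03, 13.33, 12.91, 12.79 and 12.33 in the knockdown libraries. It stood at 9.31, 9.46, 9.84, 8.96 and 10.11 with wild-type, 13.19, 13.70, 13.01 and 12.99 with delta 22 and 10.70, 10.64 and 10.32 with mut9. No wild-type library overlapped a control, knockdown or mut9 library. ADM rose 30.0-fold (4.91, SE 0.25, adjusted p = 2.13e-12) and fell 10.1-fold with wild-type and 5.01-fold with mut9 (adjusted p = 4.27e-10 and 8.45e-07). The mut9 libraries lay 1.02 above the wild-type libraries (adjusted p = 0.0126), a difference not called without mut9 replicate 3 (0.94) or 4 (0.97).

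CA12, a membrane carbonic anhydrase that acts in pH control, ranged from 5.51 to 7.09 in the control and from 10.89 to 12.16 in the knockdown libraries, a 29.8-fold rise (4.90, SE 0.35, adjusted p = 2.36e-10). Its range was 6.55 to 8.0 with wild-type, 8.82 to 10.15 with delta 22 and 8.59 to 9.20 with mut9. CA12 differs from its companions in the delta 22 libraries, all of which lay below every knockdown library. Delta 22 lowered it 3.94-fold (-1.98, SE 0.35, adjusted p = 0.00294), wild-type 20.8-fold and mut9 6.10-fold (adjusted p = 1.06e-09 and 1.24e-05). The wild-type libraries overlapped the control libraries (0.52, adjusted p = 0.246), and mut9 stood 1.77 above wild-type (adjusted p = 0.00321). CA9, the related enzyme often used as a hypoxia marker, ranged from 1.96 to 4.64 in the control and from 2.24 to 2.47 in the knockdown libraries. It was not tested in the main fit. With no filter on low values it was called as lower after the knockdown, although its groups overlapped and its values were low.

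BHLHE40, a transcriptional repressor raised by low oxygen, ranged from 7.98 to 8.68 in the control and 12.23 to 13.08 in the knockdown libraries, a 17.5-fold rise (adjusted p = 7.11e-11). It was 3.58-fold lower with wild-type and 2.05-fold lower with mut9 than in the knockdown (adjusted p = 3.34e-06 and 0.00627), and 4.88-fold above control with wild-type. ANKRD37, a small HIF target with ankyrin repeats, rose 2.70-fold and fell 1.63-fold with wild-type, while its mut9 difference was -0.45 (adjusted p = 0.0982). VEGFA, the angiogenic growth factor, rose 1.67-fold, from a range of 12.51 to 12.91 to one of 13.14 to 13.92. It fell 2.66-fold with wild-type and 2.11-fold with mut9, and all wild-type libraries (11.79 to 12.16) lay below all control libraries (-0.67, adjusted p = 0.000428).

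BNIP3 and BNIP3L are related mitophagy receptors. BNIP3L rose 1.74-fold and BNIP3 differed from control by 0.07 (adjusted p = 0.604). With wild-type both fell, BNIP3L by 1.57-fold and BNIP3 by 1.52-fold, the latter to a level below control (-0.53, adjusted p = 0.00204). With mut9 BNIP3 was at -0.40 (adjusted p = 0.0165) and BNIP3L at -0.54 (adjusted p = 0.0044). BNIP3 was not called without mut9 replicate 3 (-0.34) or 5 (-0.39), and BNIP3L was not called without mut9 replicate 5 (-0.37). BNIP3L was the one gene of the 40 that delta 22 raised (0.49, adjusted p = 0.0405). It was not called without knockdown replicate 1, 3, 4 or 5 or delta 22 replicate 1, 2, 3 or 4 (values of 0.38 to 0.54), nor under quantile scaling (0.44). KDM3A, a histone demethylase, rose by 0.34 (adjusted p = 0.0402) and was not called without control replicate 2 or 3 or knockdown replicate 1, 2 or 5 (values of 0.27 to 0.34). Its differences from the knockdown were 0.01 with wild-type, 0.01 with delta 22 and -0.09 with mut9, with none called.

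**Figure D3:**
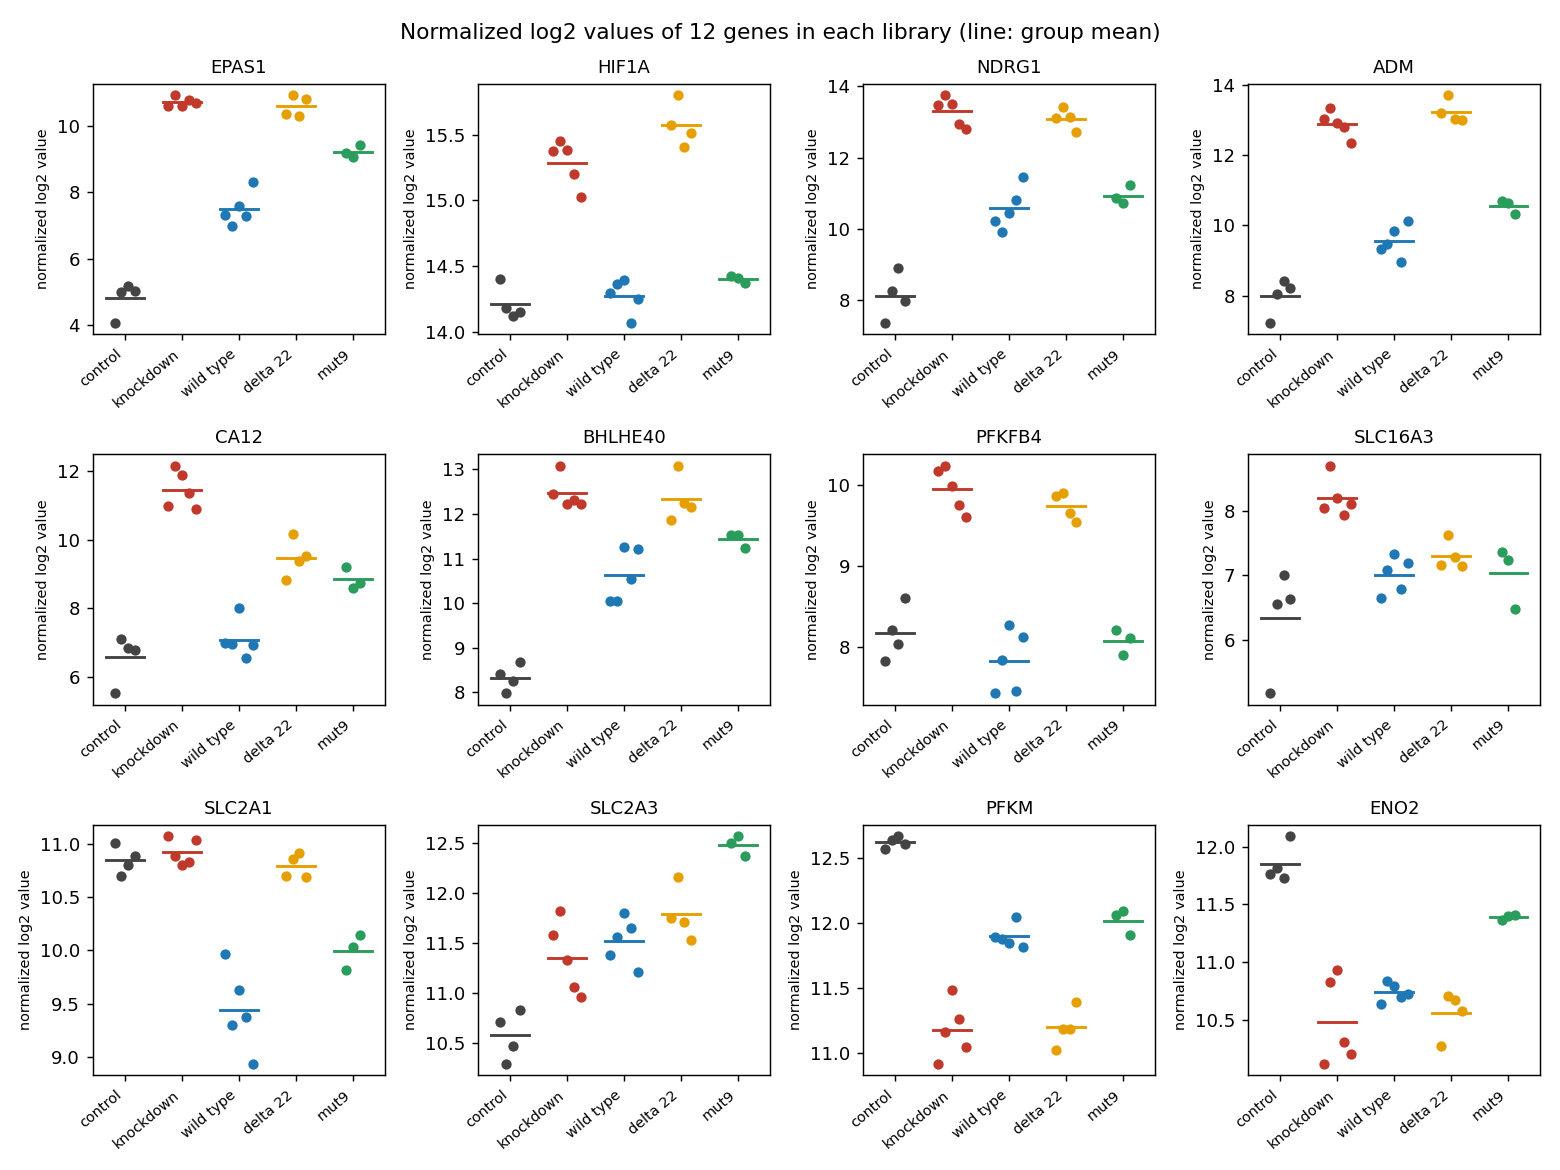
Normalized log2 values of 12 genes, one panel each, in every library (points, coloured by group along the horizontal axis; lines are group means; vertical scales differ). EPAS1, NDRG1, ADM and BHLHE40 are high with delta 22 and intermediate with wild-type, CA12 is lower with delta 22 than in the knockdown, and SLC2A1 is lowest with wild-type.

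The 2 glucose transporters did not move together. SLC2A1 encodes GLUT1, the common transporter of dividing cells. It stood at 11, 10.70, 10.80 and 10.88 in the control and at 11.07, 10.88, 10.80, 10.83 and 11.04 in the knockdown libraries. With wild-type it stood at 9.97, 9.3, 9.63, 9.38 and 8.94, with delta 22 at 10.70, 10.86, 10.91 and 10.68 and with mut9 at 9.81, 10.03 and 10.15. The control, knockdown and delta 22 libraries shared one range, and every wild-type and mut9 library lay below it. SLC2A1 differed by 0.08 after the knockdown (SE 0.14, adjusted p = 0.631), fell 2.79-fold with wild-type (-1.48, SE 0.13, adjusted p = 1.29e-08) and 1.90-fold with mut9 (adjusted p = 5.66e-05), and was 2.64-fold below control with wild-type (adjusted p = 4.77e-07). The fall with wild-type ran from -2.10 to -1.10 within batches.

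SLC2A3 encodes GLUT3, a transporter of high affinity known from neurons, and has a near-identical neighbour, SLC2A14, so that its reads are uncertain. It stood at 10.72, 10.29, 10.47 and 10.83 in the control and 11.58, 11.82, 11.33, 11.06 and 10.96 in the knockdown libraries. It stood at 11.38, 11.55, 11.80, 11.65 and 11.21 with wild-type, 11.75, 12.15, 11.71 and 11.53 with delta 22 and 12.50, 12.56 and 12.36 with mut9. All 3 mut9 libraries were above every other library, and all control libraries below every other. The rise after the knockdown was 1.71-fold (0.77, SE 0.16, adjusted p = 0.000346). Mut9 raised SLC2A3 a further 2.18-fold (1.13, SE 0.18, adjusted p = 3.75e-05), while the wild-type difference was 0.17 (adjusted p = 0.351).

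Among the hexokinases, HKDC1 (a hexokinase of low activity) and HK1 rose and HK2, the isoform known as a HIF target, fell. HKDC1 stood at 5.26, 5.76, 6.06 and 5.90 in the control and 8.80, 8.97, 8.60, 8.48 and 9.35 in the knockdown libraries. It stood at 6.19, 5.62, 7.16, 5.98 and 5.91 with wild-type, 6.04, 7.71, 7.50 and 6.57 with delta 22 and 6.71, 6.64 and 7.04 with mut9. Every knockdown library lay above every other library. The rise was 8.54-fold (3.09, SE 0.32, adjusted p = 4.55e-08). Wild-type lowered HKDC1 6.34-fold, mut9 4.13-fold and delta 22 3.70-fold (adjusted p = 2.63e-07, 7.17e-05 and 0.00241), and the last was -1.89 on the log2 scale. HK1 rose 1.71-fold (0.78, SE 0.13, adjusted p = 1.81e-05) and fell with wild-type (-0.78, adjusted p = 1.32e-05), where it differed from control by 0.00 (adjusted p = 0.998). Its mut9 difference from the knockdown was -0.13 (adjusted p = 0.477). HK2 ranged from 11.30 to 11.79 in the control and 10.19 to 10.62 in the knockdown libraries, a fall of 2.17-fold (adjusted p = 1.18e-06), and its differences from the knockdown were -0.01 with wild-type, -0.26 with delta 22 and 0.23 with mut9, with none called.

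Among the upper glycolytic enzymes 6 of 7 genes fell after the knockdown, and PFKL rose. PFKM, the muscle-type phosphofructokinase, stood at 12.56, 12.64, 12.67 and 12.60 in the control and 10.91, 11.16, 11.48, 11.26 and 11.04 in the knockdown libraries. It stood at 11.89, 11.88, 11.84, 12.05 and 11.82 with wild-type, 11.02, 11.19, 11.18 and 11.39 with delta 22 and 12.06, 12.09 and 11.91 with mut9. The knockdown and delta 22 libraries formed the low group, and the wild-type and mut9 libraries lay between it and control. The fall was 2.72-fold (-1.45, SE 0.09, adjusted p = 4.78e-11), and wild-type raised PFKM 1.65-fold and mut9 1.79-fold (adjusted p = 5.4e-07 and 1.09e-06). PFKL, the liver-type subunit of the same enzyme, rose by 0.52 (SE 0.11, adjusted p = 0.000386) and fell by 0.46 with wild-type (adjusted p = 0.000844). The platelet-type subunit PFKP fell by 0.22 (adjusted p = 0.00708), and its rescue differences of -0.13, -0.01 and 0.18 (wild-type, delta 22, mut9) were not called. The mut9 difference was called under quantile scaling (0.32), trimmed mean rescaling (0.19), array weights (0.16) or a mean of at least 100, and without knockdown replicate 3 (0.20) or 5 (0.21), and the wild-type difference without knockdown replicate 1 (-0.18).

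ALDOC, the aldolase of nerve tissue, stood at 7.61, 8.73, 9.19 and 9.38 in the control and 6.38, 7.03, 7.89, 7.77 and 6.83 in the knockdown libraries. It stood at 7.03, 8.25, 7.99, 7.67 and 7.33 with wild-type, 6.77, 7.23, 7.01 and 7.79 with delta 22 and 8.65, 8.48 and 8.03 with mut9. Its libraries spread widely within groups, and control replicate 1 lay among the knockdown libraries. The fall was 2.93-fold (-1.55, SE 0.35, adjusted p = 0.000639), and mut9 raised it by 1.21 (adjusted p = 0.0137). The mut9 difference was not called without mut9 replicate 3 (1.08). ALDOA, the main aldolase, fell by 0.26 after the knockdown and was another 0.29 lower with wild-type (adjusted p = 0.00379 and 0.00123), the latter only -0.09 and not called under quantile scaling. GPI, which makes fructose 6-phosphate, fell by 0.77 (adjusted p = 1.24e-08) and TPI1, triosephosphate isomerase, by 0.41 (adjusted p = 2.18e-05). Wild-type raised GPI by 0.18 (adjusted p = 0.0275) and mut9 by 0.35 (adjusted p = 0.0011), the former not called without knockdown replicate 1 (0.14) or 5 (0.15). For TPI1 the differences were 0.04 with wild-type, which became 0.27 and called under quantile scaling, and 0.16 with mut9. The mut9 difference of TPI1 was called with the batch as a block (0.19), quantile scaling (0.31) or array weights (0.16), and without knockdown replicate 4 (0.19).

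The 3 PFKFB enzymes, which set the level of the activator fructose 2,6-bisphosphate, split. PFKFB4 stood at 7.83, 8.21, 8.04 and 8.61 in the control and 10.17, 10.25, 9.99, 9.75 and 9.61 in the knockdown libraries. It stood at 7.43, 7.84, 8.28, 7.46 and 8.12 with wild-type, 9.86, 9.90, 9.66 and 9.54 with delta 22 and 8.21, 7.90 and 8.12 with mut9. The knockdown and delta 22 libraries lay above all others, and the other 3 groups overlapped. PFKFB4 rose 3.44-fold (1.78, SE 0.18, adjusted p = 4.8e-08) and fell 4.38-fold with wild-type and 3.67-fold with mut9 (adjusted p = 3.57e-09 and 3.41e-07). PFKFB3, the other isoform known as a HIF target, rose 3.06-fold and fell 2.30-fold and 1.87-fold. PFKFB2, known from heart, fell by 0.56 (adjusted p = 0.000108), from a range of 9.83 to 9.99 to one of 9.12 to 9.57. Wild-type raised PFKFB2 2.15-fold to 10.35 to 10.62, above every control library (0.55, adjusted p = 0.000444), and mut9 raised it 1.56-fold.

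Among the lower glycolytic enzymes 5 of 6 fell after the knockdown, and PKM rose. ENO2, the neuronal enolase, stood at 11.76, 11.82, 11.72 and 12.09 in the control and 10.12, 10.83, 10.93, 10.31 and 10.21 in the knockdown libraries. It stood at 10.64, 10.84, 10.79, 10.70 and 10.73 with wild-type, 10.27, 10.71, 10.67 and 10.58 with delta 22 and 11.37, 11.40 and 11.41 with mut9. The 3 mut9 libraries lay apart, below control and above all others. ENO2 fell 2.58-fold (-1.37, SE 0.14, adjusted p = 4.03e-08), and mut9 raised it 1.88-fold (adjusted p = 5.95e-05). The wild-type difference was 0.26 (adjusted p = 0.0939), called under quantile scaling (0.37) and without knockdown replicate 2 (0.35) or 3 (0.37). The mut9 libraries stood 0.65 above the wild-type libraries (adjusted p = 0.00574).

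PKM, pyruvate kinase of muscle and tumours, stood at 16.83, 16.88, 16.94 and 16.81 in the control and 17.49, 17.68, 17.57, 17.58 and 17.18 in the knockdown libraries. It stood at 16.57, 16.52, 16.76, 16.53 and 16.72 with wild-type, 17.53, 17.73, 17.58 and 17.63 with delta 22 and 16.94, 16.82 and 16.85 with mut9. Every knockdown and delta 22 library was above every library of the other groups. PKM rose 1.55-fold (0.63, SE 0.08, adjusted p = 1.44e-06) and fell 1.84-fold with wild-type and 1.55-fold with mut9 (adjusted p = 1.37e-08 and 1.42e-05). Against control the wild-type difference was -0.25 (adjusted p = 0.0251), but 0.06 and not called under quantile scaling, and it was not called without control replicate 2 or 3 or wild-type replicate 2 or 4 (values of -0.24 to -0.22).

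The other 4 moved by small amounts. GAPDH fell by 0.31 after the knockdown, PGK1 (phosphoglycerate kinase) by 0.45, PGAM1 (phosphoglycerate mutase) by 0.22 and ENO1 by 0.37 (adjusted p = 0.00143, 3.4e-06, 0.0071 and 0.000115). Under quantile scaling the falls of GAPDH and ENO1 were -0.79 and -0.89. Wild-type lowered GAPDH by another 0.32 (adjusted p = 0.000711), which became 0.08 and not called under quantile scaling. ENO1 differed by -0.11 with wild-type (adjusted p = 0.161) and by 0.41, called, under quantile scaling. PGK1 rose with mut9 (0.25, adjusted p = 0.006), and its wild-type difference was 0.03 (0.17 and called under quantile scaling). PGAM1 differed from the knockdown by 0.03, 0.14 and 0.06 (wild-type, delta 22, mut9), with none called, but the wild-type and mut9 differences were 0.18 and 0.17 and called under quantile scaling. GAPDH, ENO1, PGK1, TPI1, ALDOA, PKM, LDHA and PGAM1 have near-identical copies or pseudogenes elsewhere in the genome, so that their reads may be shared, which was not measured.

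In the lactate and pyruvate branch 3 genes rose after the knockdown and LDHB fell. LDHB, the lactate dehydrogenase subunit of heart, stood at 15.47, 15.40, 15.32 and 15.29 in the control and 14.21, 14.29, 14.45, 14.50 and 14.28 in the knockdown libraries. It stood at 14.86, 14.86, 14.68, 14.70 and 14.55 with wild-type, 14.27, 14.32, 14.10 and 14.47 with delta 22 and 14.62, 14.64 and 14.52 with mut9. All control libraries lay above all others, and the wild-type and mut9 libraries above the knockdown libraries. LDHB fell 2.03-fold (-1.02, SE 0.08, adjusted p = 8.13e-10) and rose 1.31-fold with wild-type (adjusted p = 0.000155). The mut9 rise was 0.25 (adjusted p = 0.0218), a difference not called without knockdown replicate 1 or mut9 replicate 3 or 4 (values of 0.21 to 0.23). LDHA, the muscle subunit and a HIF target, rose by 0.46 and fell by 0.61 with wild-type (adjusted p = 0.00403 and 0.000277), with a mut9 difference of -0.21 (adjusted p = 0.231).

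The lactate exporter SLC16A3 (MCT4), a HIF target, stood at 5.18, 6.56, 7.0 and 6.64 in the control and 8.03, 8.69, 8.20, 7.93 and 8.11 in the knockdown libraries. It stood at 6.65, 7.08, 7.34, 6.79 and 7.20 with wild-type, 7.16, 7.63, 7.29 and 7.14 with delta 22 and 7.36, 7.24 and 6.49 with mut9. All knockdown libraries lay above all others. The rise was 3.59-fold (1.85, SE 0.28, adjusted p = 7.97e-06), followed by falls of 2.27-fold with wild-type and 2.24-fold with mut9 (adjusted p = 0.000686 and 0.00384). The delta 22 difference was -0.89 (adjusted p = 0.0764), called with the batch as a block and with the compared groups only.

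SLC16A1 (MCT1), the widely expressed carrier, stood at 13.36, 13.02, 13.05 and 13.12 in the control and 13.12, 13.20, 13.24, 13.29 and 13.36 in the knockdown libraries. It stood at 13.16, 12.85, 12.93, 12.82 and 12.53 with wild-type, 13.15, 13.16, 12.98 and 13.18 with delta 22 and 12.70, 12.78 and 12.89 with mut9. The control and knockdown libraries overlapped (0.11, adjusted p = 0.33), and the mut9 libraries lay below both. SLC16A1 fell with wild-type (-0.39, adjusted p = 0.000969) and with mut9 (-0.45, adjusted p = 0.00129). The pyruvate dehydrogenase kinases hold pyruvate back from mitochondria. PDK1, a HIF target, rose by 0.43 (adjusted p = 0.0139) and fell by 0.82 with wild-type (adjusted p = 4.42e-05), and the rise was not called without control replicate 1 (0.28). PDK3 differed by -0.02 after the knockdown (adjusted p = 0.924) and fell 1.63-fold with wild-type and 2.04-fold with mut9 (adjusted p = 0.000957 and 0.000181).

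The wild-type libraries were next set against control, to see how near the rescue came to the starting state. FLI1 itself had a mean of 10.47 in the wild-type and 11.64 in the control libraries, and its part in these differences was not tested. Of the 40 genes 8 were higher and 20 lower with wild-type EWS/FLI, where 39.6% of all genes were called, 21.3% as higher and 18.3% as lower. The median was -0.225, beside 0.033 over all genes. Those still higher were led by EPAS1, NDRG1, BHLHE40 and ADM (2.68, 2.45, 2.29 and 1.56), with SLC2A3, ANKRD37, PFKFB2 and PFKFB3 between 0.41 and 0.94. Most lower ones were enzymes of the pathway, such as HK2 (-1.13), ENO2 (-1.11), PFKM (-0.72), LDHB (-0.64) and GAPDH (-0.63). SLC2A1, PDK3, SLC16A1 and BNIP3, at 0.08, -0.02, 0.11 and 0.07 and not called after the knockdown, were at -1.40, -0.73, -0.28 and -0.53 with wild-type, all called. Both comparisons share the control libraries. Within the 4 shared batches 27 of the 28 called genes kept their direction in each, and ANKRD37 did not. Some calls rested on single libraries. SLC16A1 was not called without control replicate 1 (-0.20) or wild-type replicate 5 (-0.20). ALDOC (-1.08) was not called without control replicate 3 or 5 or wild-type replicate 1 (values of -0.92 to -0.86), and PDK1 (-0.39) was not called without control replicate 3 or 5 or wild-type replicate 1, 4 or 5 (values of -0.36 to -0.24). PGAM1 (-0.19) was not called without control replicate 2, 3 or 5 or wild-type replicate 1, 3 or 5 (values of -0.20 to -0.17). With the batch as a block, KDM3A (0.37) and SLC16A3 (0.69) were called as higher too. Over all genes 42.7% of the calls were higher under quantile scaling, against 53.7% as deposited, and among the 40 genes 8 were higher and 18 lower. There ANKRD37 (0.53), TPI1 (-0.10), PGAM1 (-0.11) and PKM (0.06) were not called, and HIF1A (0.21) and PFKFB4 (-0.45) were.

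The mutant forms were compared with wild-type directly. Mean FLI1 differed between these groups (10.47 with wild-type, 11.27 with delta 22, 10.23 with mut9), and its level cannot be told apart from the form of the rescue. With delta 22, 27 of the 40 genes were higher and 3 lower than with wild-type, where 61.2% of all genes were called, 31.7% as higher and 29.5% as lower. The median was 0.625, beside -0.004 over all genes. ADM (3.69), EPAS1 (3.09), NDRG1 (2.53), CA12 (2.40) and PFKFB4 (1.92) had the largest differences, and HIF1A was 1.30 higher. PFKM, PFKFB2 and LDHB were lower (-0.70, -0.91 and -0.44). GAPDH (0.59), ENO1 (0.18) and TPI1 (0.16) were higher as deposited, but at -0.02, -0.51 and -0.15 under quantile scaling, and GPI went from 0.03 to -0.15. Quantile scaling left 23 genes higher and 7 lower, and 41.9% of all calls in the higher direction, against 51.9% as deposited. ENO1 was also not called with the batch as a block (0.17), and it was not called without wild-type replicate 2, 4 or 5 or delta 22 replicate 1, 2 or 4 (values of 0.14 to 0.18). TPI1 was not called without wild-type replicate 3, 4 or 5 or delta 22 replicate 1, 2 or 4 (values of 0.13 to 0.16), SLC16A1 (0.26) was not called without wild-type replicate 5 or delta 22 replicate 1, 2 or 4 (values of 0.18 to 0.25), EGLN3 (0.56) was not called without wild-type replicate 2 or 3 or delta 22 replicate 3 or 4 (values of 0.42 to 0.55), and HKDC1 (0.78) was not called without wild-type replicate 1, 2, 4 or 5 or delta 22 replicate 2 or 3 (values of 0.53 to 0.78). Within the 4 shared batches 26 of the 30 called genes kept their direction in each, and ENO1, SLC16A1, EGLN3 and HKDC1 did not.

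With mut9, 11 of the 40 genes were higher and 1 lower than with wild-type, where 18.8% of all genes were called, 11.2% as higher and 7.61% as lower. The median was 0.252, beside 0.013 over all genes. The higher genes were CA12 (1.77), EPAS1 (1.72), ADM (1.02), SLC2A3 (0.96), HK1 (0.65), ENO2 (0.65), SLC2A1 (0.55), PDK1 (0.53), PFKP (0.31), ALDOA (0.28) and PGK1 (0.22), and PFKFB2 was lower (-0.46). All 12 kept their direction within each of the 3 shared batches. Without mut9 replicate 4 the count was 7. SLC2A1 was not called without mut9 replicate 4 (0.54) or 5 (0.48), ALDOA was not called without mut9 replicate 3 (0.24) or 4 (0.27) and PGK1 was not called without wild-type replicate 3 or 5 or mut9 replicate 3, 4 or 5 (values of 0.19 to 0.24). PDK1 was not called without wild-type replicate 1, 4 or 5 or mut9 replicate 3, 4 or 5 (values of 0.47 to 0.57), and ADM was not called without mut9 replicate 3 (0.94) or 4 (0.97). BHLHE40, at 0.81 and not called (adjusted p = 0.0589), was called without wild-type replicate 3 (0.96) or 5 (0.95). With the batch as a block, GAPDH (0.23), VEGFA (0.39), LDHA (0.38) and PFKL (0.29) were called as well. Over all genes 59.5% of the calls were higher as deposited and 43.9% under quantile scaling, and 11 higher and 1 lower among the 40 in both.

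Related genes were also compared within each library, since such a difference does not move with a factor that scales the whole library. For 13 pairs the log2 value of one gene minus that of the other was compared between groups by an exact 2-sided permutation test over libraries, with 52 tests adjusted together (Benjamini-Hochberg). The difference was called in 9 pairs after the knockdown, in 8 with wild-type, in 2 with delta 22 and in 7 with mut9, always against the knockdown for the rescues. No share over other pairs of genes was computed, and 69.5% of all single genes were called after the knockdown. These counts are therefore descriptions and show nothing particular to the pairs. These calls lie near the smallest exact permutation p that so few libraries can give, 0.00794 for the knockdown, wild-type and delta 22 comparisons and 0.0179 for mut9. Without any 1 knockdown library 0 of the 26 passed, and without any 1 mut9 library 18 did.

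LDHB minus LDHA was 0.56, -0.14, -0.31 and -0.0041 in the control and -1.45, -1.67, -1.45, -1.52 and -1.22 in the knockdown libraries. It was -0.15, -0.45, -0.57, -0.48 and -0.69 with wild-type, -1.76, -1.93, -1.72 and -1.76 with delta 22 and -0.98, -0.91 and -1.12 with mut9. No library of the knockdown overlapped one of any other group, and delta 22 lay beyond it on the far side from control. The change was -1.49 after the knockdown (exact permutation p = 0.00794, adjusted 0.0295), 0.99 with wild-type, 0.46 with mut9 and -0.33 with delta 22 (adjusted 0.0295, 0.0371 and 0.0371).

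EPAS1 minus HIF1A changed by 4.81 after the knockdown, -2.19 with wild-type and -0.60 with mut9 (exact permutation, adjusted 0.0295, 0.0295 and 0.0371), the largest changes of any pair for the first and second. PFKL minus PFKM rose by 1.97 and fell by 1.19 with wild-type and 1.02 with mut9, while delta 22 differed by 0.17 (exact permutation p = 0.167). SLC2A3 minus SLC2A1 rose after the knockdown (0.69, exact permutation, adjusted 0.0476), with overlap between the groups. The same pair rose again, without overlap, with wild-type (1.65) and mut9 (2.05). SLC16A3 minus SLC16A1 rose by 1.74 and fell by 0.76 with delta 22 (exact permutation p = 0.00794, adjusted 0.0295). The same pair changed by -0.80 with wild-type (exact permutation, adjusted 0.0371) and by -0.71 with mut9 (adjusted 0.0599, not called). HK2 minus HK1 fell by 1.90 and rose by 0.77 with wild-type, and ENO2 minus ENO1 fell by 1.00 (adjusted 0.0295). PFKP minus PFKM and BNIP3L minus BNIP3 rose after the knockdown (1.22 and 0.73). For ALDOC minus ALDOA, PFKFB4 minus PFKFB3, PDK3 minus PDK1 and EGLN3 minus EGLN1 the knockdown differences (-1.29, 0.17, -0.45 and 0.20) were not called. Against the knockdown, PFKP minus PFKM changed with wild-type (-0.85) and mut9 (-0.66), and so did PFKFB4 minus PFKFB3 (-0.93 and -0.97). PDK3 minus PDK1 changed with mut9 (-0.74), and all of these rescue changes were called.

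**Figure D4:**
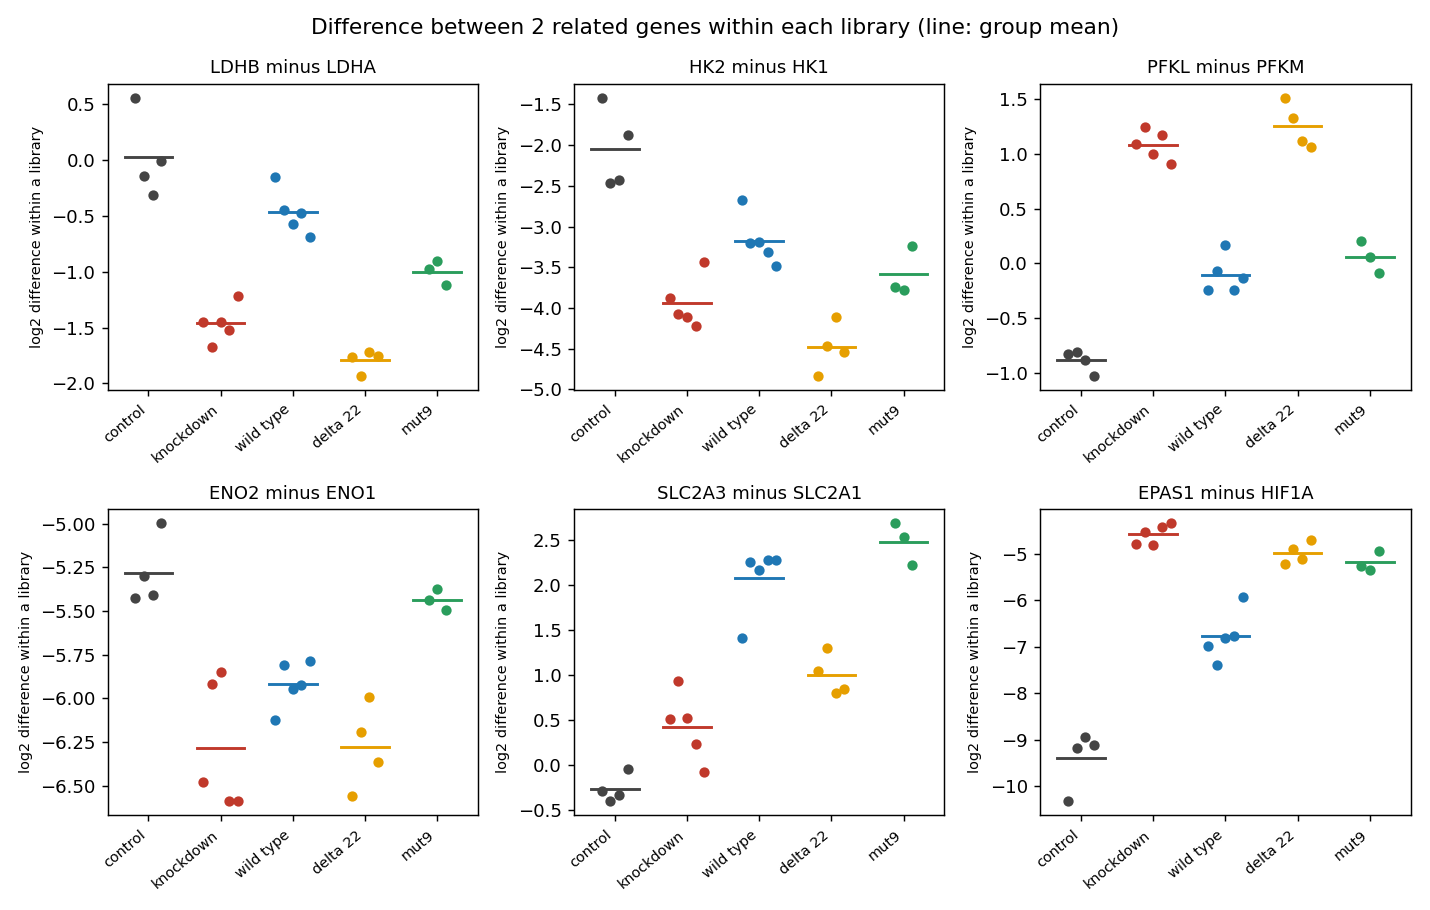
Difference in log2 value between 2 related genes within each library (vertical axes), by group (horizontal axes), with points for libraries and lines for group means. LDHB minus LDHA is lowest with delta 22, PFKL minus PFKM is high in the knockdown and delta 22 libraries, and SLC2A3 minus SLC2A1 is highest with mut9.

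Other genes of the same pathways were read from 7 further lists, for which the all-gene medians are -0.007 for the knockdown, 0.006 for wild-type, 0.006 for delta 22 and -0.003 for mut9. Of all genes tested, 35.5% rose and 34.0% fell after the knockdown, 29.6% and 32.3% with wild-type, 2.24% and 2.26% with delta 22, and 23.0% and 25.5% with mut9, and a list whose shares lie near these shows nothing of its own. Of 40 other hypoxia response genes tested, 29 rose and 5 fell after the knockdown (median 1.831), 2 rose and 30 fell with wild-type (median -1.086), and 3 rose and 21 fell with mut9 (median -0.659), while delta 22 raised 1 and lowered none (median 0.004). LOXL2, a collagen cross-linking enzyme, rose 82.0-fold and PLAUR, the urokinase receptor, 11.2-fold (adjusted p = 2.1e-13 and 1.26e-13). FAM162A, a mitochondrial protein, and HILPDA, which acts on lipid droplets, fell against the list (-1.97 and -1.02) and rose with wild-type (1.42 and 0.71), and FAM162A was the gene that delta 22 raised (0.44, adjusted p = 0.0296). Of 17 other HIF pathway factors 3 rose and 6 fell after the knockdown (median -0.140), the share that fell being near that of all genes. ARNT2, a partner of HIF alpha subunits, rose 13.6-fold and fell 3.47-fold with wild-type, and HIF3A, another alpha subunit that can act as an inhibitor, fell 4.08-fold and rose 3.03-fold.

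Of 14 glycogen genes 10 rose and 2 fell after the knockdown (median 0.696), 2 rose and 10 fell with wild-type (median -0.637). PYGB, the brain glycogen phosphorylase, rose 3.19-fold and PPP1R3C, a targeting subunit that favours glycogen synthesis, 4.36-fold (adjusted p = 6.42e-12 and 3.07e-11). With wild-type they differed from the knockdown by -1.33 and -0.95, both called. Of 10 other sugar and monocarboxylate transporters 4 rose and 2 fell (median 0.103), among them SLC2A10 (13.0-fold higher) and SLC2A12 (4.56-fold higher) and SLC2A4, the insulin-responsive GLUT4 (-1.52). SLC2A4 was low throughout, with a mean of 4.09 in the control and 2.56 in the knockdown libraries, the latter below 10 on the linear scale. Of 12 genes of pyruvate entry into mitochondria 3 rose and 6 fell (median -0.180). PDP1 and PDP2, phosphatases that reactivate pyruvate dehydrogenase, moved in opposite directions, PDP1 up by 2.79 and PDP2 down (-1.43), and both turned back with wild-type (-1.70 and 1.40). Of 8 pentose phosphate genes 3 rose and 3 fell (median 0.075), shares near those of all genes, with H6PD, the enzyme of the endoplasmic reticulum, at 1.36 (adjusted p = 7.32e-10). Of 7 other glycolytic enzymes 4 rose and 1 fell (median 0.432), with BPGM, which makes 2,3-bisphosphoglycerate, at 0.81 and PC, pyruvate carboxylase, at -0.97 (adjusted p = 4.55e-08 and 4.02e-05).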

How the data were processed

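RNA from 21 libraries of A673 cells (2.5 ug of RNA per library, per the labels' protocols) was sequenced. The deposited table holds 1 log2 value per gene and library, normalized by the authors, from -4.1 to 20.2, with 17358 of 57820 genes at 0 in every library. The submitters' processing notes name bcl2fastq, STAR 2.5.2b, HTSeq, DESeq2 and hg19, with no role or order. The normalization and the form of the logarithm are not given in the sources used here, and differences of low genes may be understated if low values were drawn together. Counts and depth are unknown, so no count test was run and no pseudocount was added.

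Ensembl identifiers were paired with symbols through the reference gene table (51996 matched, 5824 not). Genes with at least 3 libraries at 10 or more on the linear scale were kept. Differences were fitted with limma 3.58.1 (R 4.3.3, trend, 1 mean per group, all libraries sharing 1 estimate of spread), and p-values are 2-sided with Benjamini-Hochberg adjustment over 18040 genes. Code for the tests was tested on simulated data. Other steps used Python 3.11.15. Of the values with an adjusted p, all come from limma except those of gene pairs, which come from exact permutation tests.

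The labels give the replicate number as the batch, so numbers pair the samples: the 34 pairs of libraries with the same number had a mean correlation of their deviations of 0.20 (24 above 0.1), against -0.05 for the other 141. The most alike libraries correlated at 0.9978 with 0 identical values, so all were counted separately.

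The genes, pathway lists, pairs and tests were chosen with earlier results of these data known. Values in every library are printed for the genes with the largest knockdown difference in each role (the top 2 in roles of 4 or more tested genes, otherwise 1), for both genes of the pairs with the largest called difference and for HIF1A and EPAS1. From other lists the 2 genes with the smallest adjusted p per direction were eligible. Alternatives were no filter, a mean of at least 100, quantile scaling, trimmed mean rescaling, the batch as a block, the compared groups only, array weights and leaving out each library in turn. Promoter sequences are RefSeq's, on GRCh38.p14, and carry no measurement. Some listed genes are not reported here.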

Additional observations from a re-analysis of the deposited data

Results flagged for a closer look

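In 4 of 160 combinations of gene and group of 4 or 5 libraries, 1 library lay apart from the others by more than Dixon's critical value for the gap as a share of the range, which chance gives in about 1 of 20 groups. EPAS1 in control replicate 1 was at 4.08, with the other control libraries between 4.99 and 5.17 (ratio 0.835). ANKRD37 in control replicate 5 was at 3.70, with the others between 4.28 and 4.37 (ratio 0.868). BHLHE40 in knockdown replicate 2 was at 13.08, above the others at 12.23 to 12.46 (ratio 0.735). GPI in wild-type replicate 5 was at 13.12, with the others between 13.17 and 13.19 (ratio 0.801). No call of EPAS1 or BHLHE40 between knockdown and control rested on these libraries.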

How the results depend on the processing

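Of 166 calls among the 40 genes over 7 comparisons, 136 held under every alternative run. Quantile scaling, which assumes like distributions in all libraries, turned 7 differences that were called with it or without it. Turns among differences called in neither fit were not counted. With wild-type against the knockdown ENO1 became 0.41 and GAPDH 0.082. With delta 22 against wild-type ENO1 became -0.51, GPI -0.15, TPI1 -0.15 and GAPDH -0.020. With wild-type against control PKM became 0.061. The cause was not tested. With the batch as a replicate block the delta 22 count against the knockdown was 5, against 3, and mut9 against wild-type gave 16, against 12; beside the genes named with these counts, the block changed the calls of EGLN3 and TPI1 (mut9 against the knockdown), ENO1 (delta 22 against wild-type), and KDM3A and SLC16A3 (wild-type against control), and no other call. Array weights gave 19 for mut9 against wild-type. Leaving out 1 library gave 7 to 13 there, and 34 to 36 for the knockdown against control. Of the 52 pair tests 26 passed, 27 under quantile scaling, and 0 to 26 without 1 library, because fewer libraries raise the smallest p that can be reached. With the batch as a block the pair differences were computed as values with no test. The 26 that had passed kept their direction, and the direction of the others was not checked. Depth is unknown, so a limit for low genes such as CA9 cannot be given.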
